A study of Homo sapiens with 6 samples.

Results

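Type 1 diabetes risk loci outside HLA were described here through 10 candidate genes: PTPN2, PTPN22, BACH2, CLEC16A, DEXI, SH2B3, UBASH3A, RNLS, PRKCQ and DLK1. The genes were chosen by name from the genetics of the disease, with earlier results of these data known. Each was found in the authors' deposited tables by its symbol. This gave 10 loci of 61695 in the count table and 72 named transcripts of 274669 in the isoform table. The cells were EndoC-βH1, a human pancreatic beta cell line, so all values come from 1 line. Of the 6 libraries, 3 were controls and 3 came from cells kept for 24 h with a cocktail of IL-1β (5 ng/ml), TNF-α (10 ng/ml), IFN-γ (50 ng/ml) and IL-17 (100 ng/ml).

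Both groups were seeded at 75000 cells per well, adhered for 24 h and grew in serum-free medium with 11 mM glucose. The labels call the controls cells before exposure, while the extraction protocol speaks of cells with or without cytokines for 24 h, so time in culture and exposure cannot be told apart in these sources. The labels do not say whether the 3 libraries of a group came from separate cultures, and the p-values cover only how far these libraries vary, which could be technical. The deposited tables hold a single comparison of cytokine with control and no value per library. Levels are therefore given as 1 value per group, and overlap between libraries was not examined.

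Type 1 diabetes is an autoimmune loss of beta cells, and most genes at its risk loci are best known from lymphocytes. PTPN2 and PTPN22 are tyrosine phosphatases, SH2B3 is an adaptor that restrains JAK2 signalling, and UBASH3A and PRKCQ act below the T cell receptor. BACH2 is a transcriptional repressor that shapes B and T cells. CLEC16A takes part in mitophagy and endosomal traffic, DEXI is a small protein of poorly known function beside it, RNLS is a flavin enzyme and DLK1 is an imprinted membrane protein related to Notch ligands. IFN-γ signals through JAK kinases and STAT factors, on which several of these proteins act.

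Mean depth was 40881975 normalised counts per library in the authors' deposited count table. All 18 beta cell markers examined were tested there, among them PDX1, a beta cell transcription factor, with a mean of 17067 counts. INS and CHGA had high counts but were listed at 0 FPKM in both groups of the authors' deposited gene FPKM table. A value of 0 in that table need therefore not mean absence. Both carried the Cuffdiff status HIDATA, while the T cell markers at 0 FPKM in both groups, such as CD2, carried the status NOTEST. Of 15 T cell marker loci, 12 had a mean under 10 counts, and CD2, CD3D, CD28, TRAC and TRBC2 had none in the authors' deposited count table. The summed level of the 14 T cell marker loci of a single symbol was 0.515 FPKM in control and 0.909 FPKM in cytokine cells in the authors' deposited table. For 9 B cell and myeloid marker loci the summed level was 1.55 FPKM in control and 1.52 FPKM in cytokine cells in the authors' deposited table.

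Levels of the 10 genes spanned more than 4 orders of magnitude in control cells. In the authors' deposited gene table, on the FPKM scale, which corrects for transcript length, DLK1 led with 80.7, followed by DEXI with 21.1, PTPN2 with 12.4, CLEC16A with 6.42 and PRKCQ with 5.07. SH2B3 followed with 4.70, RNLS with 2.57 and BACH2 with 1.23 FPKM in the authors' deposited table. UBASH3A at 0.0357 and PTPN22 at 0.0038 FPKM were above only 2.12% and 1.5% of the genes tested by Cuffdiff in the authors' deposited table. With 1 value per group and no spread, neighbours in this order cannot be tested against each other. In cytokine cells the authors' deposited table placed PTPN2 above DEXI, SH2B3 above CLEC16A and PRKCQ, and BACH2 above RNLS.

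**Figure D1:**
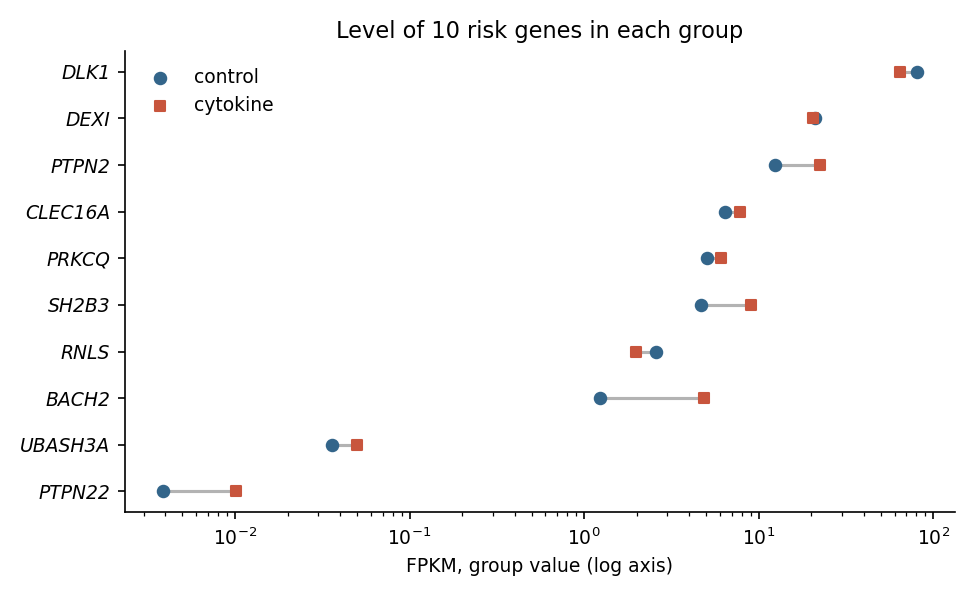
Group level of each risk gene in FPKM on a log axis, with circles for control and squares for cytokine libraries (1 authors' deposited value per group, no error available). BACH2 moves from 1.23 to 4.84, SH2B3 from 4.70 to 9.09 and PTPN2 from 12.4 to 22.3, while UBASH3A and PTPN22 stay under 0.1.

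By the authors' deposited DESeq adjusted p at a threshold of 0.05, 7 of the 9 risk loci with an adjusted p were called, 6 higher (PTPN2, SH2B3, BACH2, CLEC16A, PRKCQ and the locus that holds DEXI) and 1 lower (DLK1). Over all 30206 loci with an adjusted p, 37.7% were called, 18.0% higher and 19.7% lower in the authors' deposited table. Calls are frequent at high counts: of all loci with a mean of at least 500 counts, 76.1% were called, against 6 of 6 risk loci of that depth in the authors' deposited table, so the count of calls is near the background. RNLS and UBASH3A were not called, and PTPN22 had too few counts for an adjusted p. The median log2 fold change was 0.29 over the 9 risk loci and 0.05 over all loci tested in the authors' deposited table. The value of 0.29 is that of UBASH3A, at a mean of 5.06 counts, so this median rests on a poorly measured locus. A rise of at least 2-fold was called for 6.53% of all loci and for 2 of the risk loci, BACH2 and the locus that holds DEXI. Cuffdiff called 6 of 8 tested risk genes, 5 higher and 1 lower, against 35.7% of all genes it tested, by the authors' deposited q at 0.05. It is a different tool on the same libraries and gives no independent support.

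**Figure D2:**
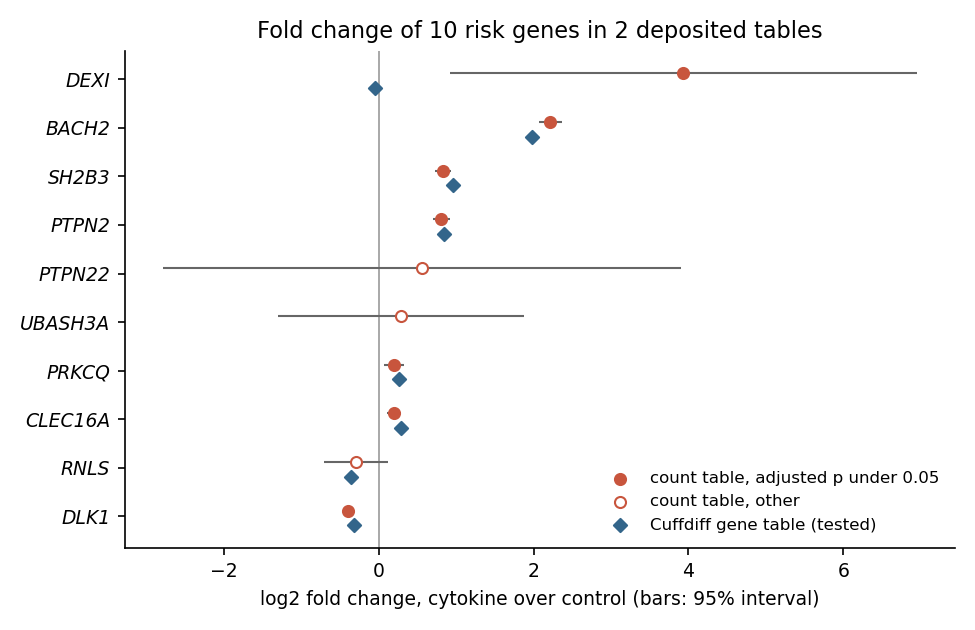
Log2 fold change of cytokine over control for the 10 risk genes from the authors' deposited tables, with circles for the count table (filled where the DESeq adjusted p was under 0.05, bars for the 95% interval) and diamonds for the 8 genes tested by Cuffdiff. The tables give nearby values for all genes drawn from both except DEXI, at 3.94 in the count table and −0.05 in the FPKM table.

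PTPN2 lies at chromosome 18, 12785478 to 12929643, minus strand (GENCODE 44, GRCh38). It encodes a phosphatase that removes phosphate from JAK and STAT proteins, and it rose with cytokines. The fitted group means worked out from the authors' deposited count table were 865 normalised counts in control and 1512 in cytokine libraries. These means follow from a deposited log2 fold change of 0.81 ± 0.06 (SE, 95% interval 0.70 to 0.92, DESeq adjusted p = 1.71e-46), or 1.75-fold, in the authors' deposited table. In the authors' deposited gene FPKM table PTPN2 went from 12.4 to 22.3 FPKM (log2 0.85, Cuffdiff q = 0.000232). A bulk library does not tell more cells with a transcript from more transcript per cell, here or in the results that follow.

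The transcripts of PTPN2 are known to encode a soluble form that reaches the nucleus and a form whose tail anchors it in the endoplasmic reticulum membrane. PTPN2-202 encodes the soluble form, with 387 codons, and PTPN2-201 the anchored form, with 415 codons. The coding sequences are identical over their first 1143 bases and then part, and the sequences below show where the forms divide, from the transcript sequences of GENCODE 44, with the last 30 shared bases in lower case and the bases up to the stop codon of each form in capitals.
PTPN2-202: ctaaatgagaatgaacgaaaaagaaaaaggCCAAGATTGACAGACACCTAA
PTPN2-201: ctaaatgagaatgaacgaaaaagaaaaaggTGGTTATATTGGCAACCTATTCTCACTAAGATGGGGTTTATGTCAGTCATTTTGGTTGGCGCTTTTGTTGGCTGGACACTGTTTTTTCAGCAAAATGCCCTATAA
The soluble form has 21 bases of its own and the anchored form 105, whose bases encode the membrane tail.

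Both forms rose. The soluble form went from 8.03 to 14.7 FPKM (log2 0.88, Cuffdiff q = 0.000833) in the authors' deposited isoform table. The anchored form went from 1.15 to 2.15 FPKM (log2 0.90, Cuffdiff q = 0.000833) in the authors' deposited isoform table. The ratio of soluble to anchored form was 6.97 in control and 6.86 in cytokine cells, from the authors' deposited FPKM. PTPN2-209, a retained intron at the 3′ end of the gene, went from 0.494 to 1.05 FPKM (log2 1.09, Cuffdiff q = 0.000833) in the authors' deposited table. PTPN2-210 and PTPN2-213, at 0.281 and 0.283 FPKM in control, reached 0.531 and 0.528 FPKM without passing the test in the authors' deposited table. An assembled transcript without a name went from 1.43 to 2.25 FPKM (log2 0.66, Cuffdiff q = 0.000833) in the authors' deposited table. Isoform FPKM values are model estimates that divide reads shared by overlapping transcripts, and they carry no spread between libraries here.

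Across all risk genes, 26 of the 72 named transcripts were tested and 7 were called by the authors' deposited Cuffdiff q at 0.05: 3 of PTPN2, 2 of DLK1 and 1 each of BACH2 and SH2B3. Over all 95649 tested transcripts 9.87% were called in the authors' deposited table. Another 18 named transcripts were listed at 0 in both groups, 9 of them of PTPN22.

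SH2B3, also called LNK, lies at chromosome 12, 111405923 to 111451623, plus strand. It encodes an adaptor that binds JAK2 and dampens cytokine receptor signalling, and it rose by nearly the same factor as PTPN2. Worked-out means were 1030 normalised counts in control and 1834 in cytokine libraries, from the authors' deposited count table. On the log2 scale the change was 0.83 ± 0.05 (SE, 95% interval 0.73 to 0.93, DESeq adjusted p = 1.57e-58), or 1.78-fold, in the authors' deposited table. The authors' deposited gene FPKM table gave 4.70 in control and 9.09 in cytokine cells (log2 0.95, Cuffdiff q = 0.000232). The 3′ end of SH2B3 overlaps ATXN2 on the opposite strand over 17.8% of its length. The strand setting of the counting was not given in the sources used here.

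SH2B3-201, which encodes 575 codons, went from 2.85 to 4.83 FPKM (log2 0.76, Cuffdiff q = 0.000833) in the authors' deposited isoform table. The largest of 4 unnamed assembled transcripts of SH2B3 went from 1.27 to 3.17 FPKM (log2 1.32, Cuffdiff q = 0.000833) in the authors' deposited table. Unnamed transcripts made up 38.5% of the gene's FPKM in control and 46.0% in cytokine cells, so the rise was spread over annotated and unannotated models of the authors' deposited assembly. SH2B3-202, whose model starts inside the gene, was listed at 0 FPKM in both groups of the authors' deposited table.

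**Figure D3:**
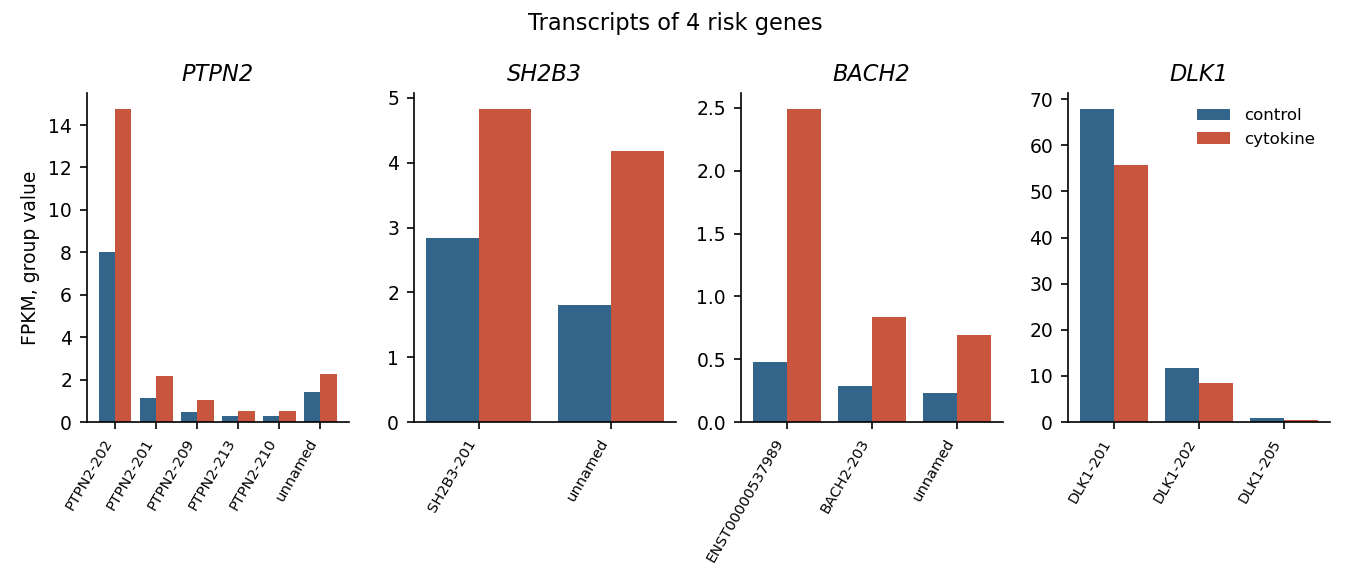
Bars show the FPKM of transcripts of PTPN2, SH2B3, BACH2 and DLK1 that reach 0.5 FPKM in either group, with the unnamed assembled transcripts of a gene summed, for control and cytokine libraries (1 authors' deposited value per group, no error available). The leading forms of PTPN2 rise from 8.03 to 14.7 and from 1.15 to 2.15, and those of DLK1 fall from 67.8 to 55.7 and from 11.7 to 8.50.

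The substrates and relatives of these regulators were described from a list of 11 JAK kinases and STAT factors. Of these, 8 rose, 1 fell and 2 were not called by the authors' deposited count table, and the median log2 fold change was 0.48. Calls covered 37.7% of all tested loci there and 76.1% of those with at least 500 counts. JAK2, the kinase bound by SH2B3, had a log2 fold change of 3.91 ± 0.05 (SE) in the authors' deposited table. TYK2 was the member of the list that fell, by 0.07 on the log2 scale (DESeq adjusted p = 0.0464), and the authors' deposited FPKM table had it at log2 0.13 without a call (q = 0.408). The fold changes of PTPN2 and SH2B3 were thus smaller than that of JAK2, with intervals that did not overlap.

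Among the 15 other non-receptor tyrosine phosphatases with an adjusted p, 5 rose, 3 fell and 7 were not called by the authors' deposited count table. Over all tested loci 37.7% were called, and 76.1% of those with at least 500 counts. The median log2 fold change of these phosphatases was 0.06. PTPN6, known as SHP-1 and a phosphatase of blood cells, rose by 0.54 ± 0.06 (SE) in log2 units in the authors' deposited table. PTPN11, the phosphatase SHP-2 that carries growth factor signals, had the highest mean, 10098 counts, and fell by 0.37 ± 0.03 (SE) in log2 units in the authors' deposited table. In the SH2B family, SH2B1, an adaptor of insulin and leptin receptors, had a log2 fold change of 0.11 ± 0.03 (SE, DESeq adjusted p = 0.00327) in the authors' deposited table. SH2B2 had 0.12 ± 0.09 (SE) and was not called by DESeq in the authors' deposited table. Cuffdiff made the opposite calls, with log2 0.19 for SH2B2 (q = 0.009) and 0.13 for SH2B1 (q = 0.511). The 95% intervals of PTPN2 and SH2B3 lay above those of the other family members drawn in the plot of families.

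**Figure D4:**
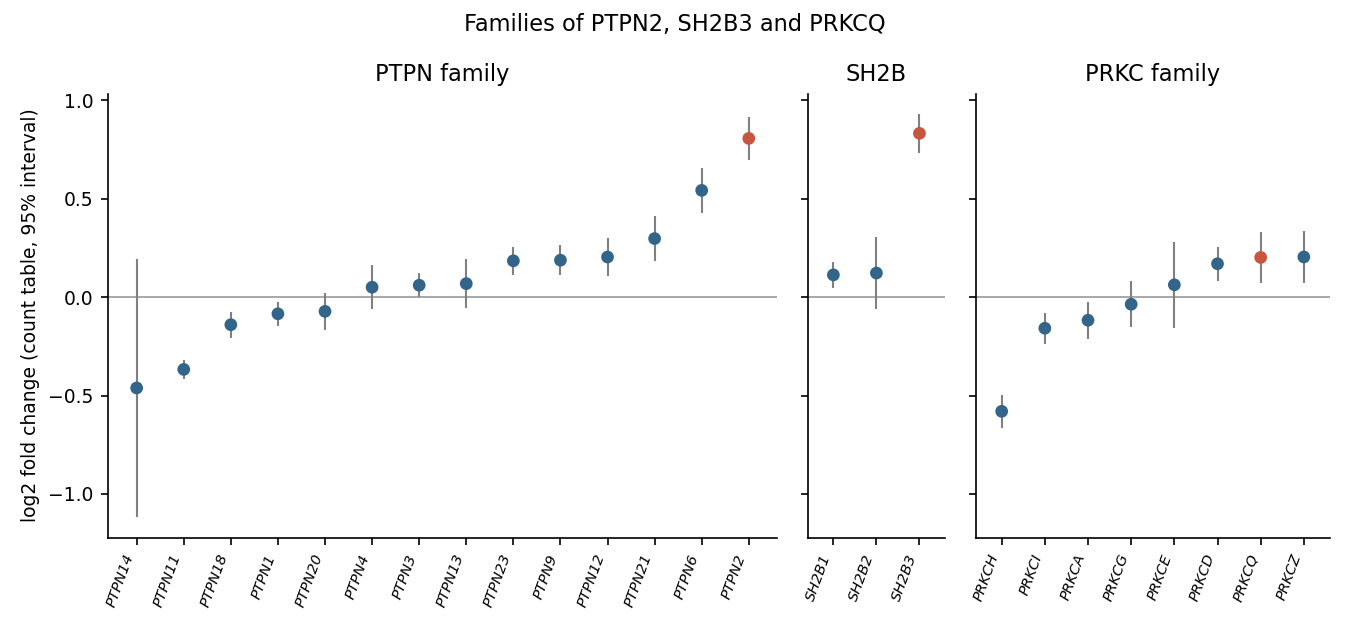
Points show the log2 fold change of cytokine over control in the authors' deposited count table for members of the PTPN, SH2B and PRKC families with a mean of at least 10 counts, and bars the 95% interval from the deposited SE. PTPN2 at 0.81 and SH2B3 at 0.83 lie above their relatives, while PRKCQ at 0.20 lies among its own (risk genes in red).

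BACH2 lies at chromosome 6, 89926528 to 90296843, minus strand. It encodes a repressor of the bZIP class that pairs with small MAF proteins, and in beta cells it is known to restrain the JNK and BIM death pathway. It showed the largest rise among the risk loci that hold a single symbol. Worked-out means were 289 normalised counts in control and 1344 in cytokine libraries, from the authors' deposited count table. The log2 fold change was 2.22 ± 0.07 (SE, 95% interval 2.07 to 2.36, DESeq adjusted p = 4.50e-191), or 4.64-fold, in the authors' deposited table. The authors' deposited gene FPKM table went from 1.23 to 4.84 (log2 1.98, Cuffdiff q = 0.000232). BACH2 was above 37.1% of the Cuffdiff-tested genes in control cells, the lowest of the called risk genes in the authors' deposited table.

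All 3 tested named transcripts of BACH2 were higher with cytokines, and 1 of them passed the test in the authors' deposited table. ENST00000537989, a transcript that GENCODE 44 no longer lists, went from 0.481 to 2.49 FPKM (log2 2.37, Cuffdiff q = 0.000833) and made up 39.2% of the gene's FPKM in control and 51.4% in cytokine cells in the authors' deposited table. BACH2-203 went from 0.288 to 0.838 FPKM in the authors' deposited table, and its q of 0.514 did not pass the test. BACH2-201, the longest model with 9215 bases, went from 0.0823 to 0.488 FPKM with a q of 0.272 in the authors' deposited table. BACH2-201 and BACH2-203 both encode 841 codons, so these models differ outside the coding sequence.

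Because BACH2, SH2B3, CLEC16A and PRKCQ moved in the same direction, the 250 bases upstream of their RefSeq starts were searched on both strands for 5 short motifs. RefSeq (GRCh38.p14) gave upstream windows for 8 of the 10 risk genes, DLK1 and UBASH3A had none in the table used, and that of PTPN2 lay at a start inside the gene and is not shown. The BACH2 window, chr6:90296844-90297093, minus strand, is shown because it holds a cAMP response element (TGACGTCA, in capitals, beginning 82 bases before the start), which is present in 1.65% of 35116 upstream windows of the same length.
BACH2 upstream: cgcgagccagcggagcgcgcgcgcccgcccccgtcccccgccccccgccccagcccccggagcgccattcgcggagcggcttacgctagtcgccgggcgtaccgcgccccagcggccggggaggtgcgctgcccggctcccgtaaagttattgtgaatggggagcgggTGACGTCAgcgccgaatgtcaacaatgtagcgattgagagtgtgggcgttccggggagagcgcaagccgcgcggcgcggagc
The SH2B3 window, chr12:111405673-111405922, plus strand, is shown beside it because the gene rose and its window holds only 1 of the 5 motifs, a CCAAT box, which reads ATTGG on this strand (in capitals).
SH2B3 upstream: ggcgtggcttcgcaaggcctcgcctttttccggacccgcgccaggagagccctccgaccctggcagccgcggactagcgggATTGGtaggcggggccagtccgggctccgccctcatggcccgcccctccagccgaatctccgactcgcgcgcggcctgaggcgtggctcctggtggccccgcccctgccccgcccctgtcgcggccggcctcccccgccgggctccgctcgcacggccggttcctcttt
The CCAAT box occurs in 32% of windows. The gamma-activated site (TTCNNNGAA, in 6.57% of windows) and the AP-1 site (TGANTCA, in 6.57%) were found in none of the windows of the 8 genes. For PTPN2 this concerns only the start inside the gene. The core of the interferon-stimulated response element (in 3.02%) was found only in the window of PRKCQ. None of these motifs contains another. A match is a run of letters and not a measured binding site, and a missing match concerns only these 250 bases.

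Partners and relatives of BACH2 were taken from a list. Of 6 other genes of the BACH group (a relative, small MAF partners, a competitor and a target), 4 rose, 0 fell and 2 were not called in the authors' deposited count table, beside 37.7% of all tested loci called and 76.1% of those with at least 500 counts. The small rises at the BACH1 locus, 0.10 ± 0.04 (SE) in log2 units, and the MAFG locus, 0.16 ± 0.04 (SE), were not called by Cuffdiff (q = 0.187 and 0.248) in the authors' deposited tables. MAFF, a small MAF protein, rose by 2.43 ± 0.23 (SE) in log2 units in the authors' deposited count table and by 3.17 in the FPKM table. The locus of NFE2L2, the NRF2 activator that competes for the same DNA sites, also holds AC074286.1 and had a log2 fold change of 0.62 ± 0.03 (SE) in the authors' deposited table. HMOX1, the heme oxygenase repressed by BACH factors, was at 9.85 counts with a log2 fold change of −0.55 ± 0.60 (SE), not called in the authors' deposited table. In the JNK axis, all 5 genes were called, 1 higher and 4 lower, in the authors' deposited count table, at depths of over 500 counts where 76.1% of all loci were called. Cuffdiff did not call 3 of the 4 lower ones, MAP2K7 (q = 0.602), MAPK8 (q = 0.104) and BCL2L11 (q = 0.525), in the authors' deposited FPKM table. JUN, the AP-1 subunit that JNK phosphorylates, rose by 1.62 ± 0.04 (SE) in log2 units in the authors' deposited table. MAPK9, a JNK kinase, fell by 0.31 ± 0.04 (SE) in log2 units in the authors' deposited table.

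CLEC16A and DEXI start from adjoining promoters on chromosome 16, on opposite strands, with the DEXI start at −2.07 kb from that of CLEC16A. CLEC16A spans 10944539 to 11182186 on the plus strand and encodes a protein that controls the removal of worn mitochondria with the ubiquitin ligase RNF41. DEXI spans 10928891 to 10942468 on the minus strand. The upstream windows are shown because they face each other across this short stretch, with CCAAT boxes in capitals.
CLEC16A upstream: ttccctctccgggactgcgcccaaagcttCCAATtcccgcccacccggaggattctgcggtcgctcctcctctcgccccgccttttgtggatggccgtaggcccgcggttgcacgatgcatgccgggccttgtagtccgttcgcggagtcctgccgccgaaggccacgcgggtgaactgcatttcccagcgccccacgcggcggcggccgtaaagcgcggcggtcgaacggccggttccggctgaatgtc
DEXI upstream: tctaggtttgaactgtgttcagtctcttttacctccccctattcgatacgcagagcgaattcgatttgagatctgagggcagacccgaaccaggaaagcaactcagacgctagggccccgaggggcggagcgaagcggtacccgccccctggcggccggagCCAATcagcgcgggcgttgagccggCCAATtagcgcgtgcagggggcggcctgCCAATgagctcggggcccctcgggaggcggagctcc
The first is chr16:10944314-10944563, plus strand, with 1 CCAAT box, and the second is chr16:10942469-10942718, minus strand, with 3 boxes, beginning between 89 and 36 bases before the start.

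CLEC16A rose slightly. Worked-out means were 1791 normalised counts in control and 2057 in cytokine libraries, from the authors' deposited count table. These means follow from a deposited log2 fold change of 0.20 ± 0.04 (SE, 95% interval 0.11 to 0.29, DESeq adjusted p = 2.98e-05), or 1.15-fold, in the authors' deposited table. FPKM went from 6.42 to 7.81 (log2 0.28, Cuffdiff q = 0.0295) in the authors' deposited gene table. No named transcript of CLEC16A was called, and 6 unnamed assembled transcripts held 78.2% of its FPKM in control and 71.2% in cytokine cells in the authors' deposited table. CLEC16A-203, with 1053 codons, was at 0.550 and 0.489 FPKM in the authors' deposited table. CLEC16A-201, a partial model at the 3′ end, was at 0.50 and 1.45 FPKM with a q of 0.456 in the authors' deposited table. Of 4 mitophagy partners, 1 rose, 2 fell and 1 was not called in the authors' deposited count table. The share called was 37.7% over all tested loci and 76.1% over those with at least 500 counts. RNF41 fell by 0.22 ± 0.04 (SE) on the log2 scale, and the deubiquitinase USP8 rose by 0.15 ± 0.04 (SE), in the authors' deposited count table. In the authors' deposited FPKM table USP8 was at log2 0.20 without a call (q = 0.349). The locus of PINK1, the kinase that marks damaged mitochondria, fell by 0.23 ± 0.05 (SE) in the authors' deposited count table, while its FPKM gave log2 −0.07 without a call (q = 0.785).

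The deposited tables differed on DEXI. In the authors' deposited count table the locus, shared with RP11-876N24.5 and RP11-876N24.7, had a mean of 2.79 normalised counts and a log2 fold change of 3.94 ± 1.54 (SE, 95% interval 0.92 to 6.95, DESeq adjusted p = 0.0295). The fitted control mean worked out from the authors' deposited table was 0.342 counts, under 1 count per library, so that fold change depends on the fit and is no bound. In the authors' deposited gene FPKM table DEXI was at 21.1 in control and 20.4 in cytokine cells (log2 −0.05, Cuffdiff q = 0.629). DEXI-201, which encodes the 95 codons of the protein, was at 17.4 and 16.3 FPKM in the authors' deposited isoform table. DEXI-202 at 0.266 and 0.579 FPKM and DEXI-204 at 1.00 and 0.727 FPKM were not called in the authors' deposited isoform table.

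The mean count of DEXI was low for its FPKM. Over 20201 loci tested by both tools the median was 76.5 counts per FPKM, and DEXI had 0.134, with only 0.0743% of loci lower, from the authors' deposited tables. All of DEXI lies within CIITA on the opposite strand. The locus of CIITA, the class II transactivator, had a log2 fold change of 6.17 ± 0.21 (SE) in the authors' deposited count table and 4.29 in the FPKM table. Whether reads of CIITA entered the count of DEXI was not tested, and without the strand setting the 2 genes cannot be told apart in the count table. The call for DEXI is therefore given for its locus and not for the gene.

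Of the other genes of this region, CIITA and SOCS1 rose far more than CLEC16A in both tables. SOCS1, an inhibitor of JAK kinases that starts 311.7 kb beyond the CLEC16A start, had a log2 fold change of 6.06 ± 0.12 (SE) in the authors' deposited count table. It went from 1.04 to 72.5 FPKM in the authors' deposited gene table. RMI2, a genome stability factor whose model spans SOCS1 on the opposite strand, had a log2 fold change of 1.04 ± 0.05 (SE) in the authors' deposited count table and 0.41 in the FPKM table. For CLEC16A these values were 0.20 and 0.28. The germ cell genes PRM1 and TNP2 of the same region had too few counts for a test in the authors' deposited table.

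**Figure D5:**
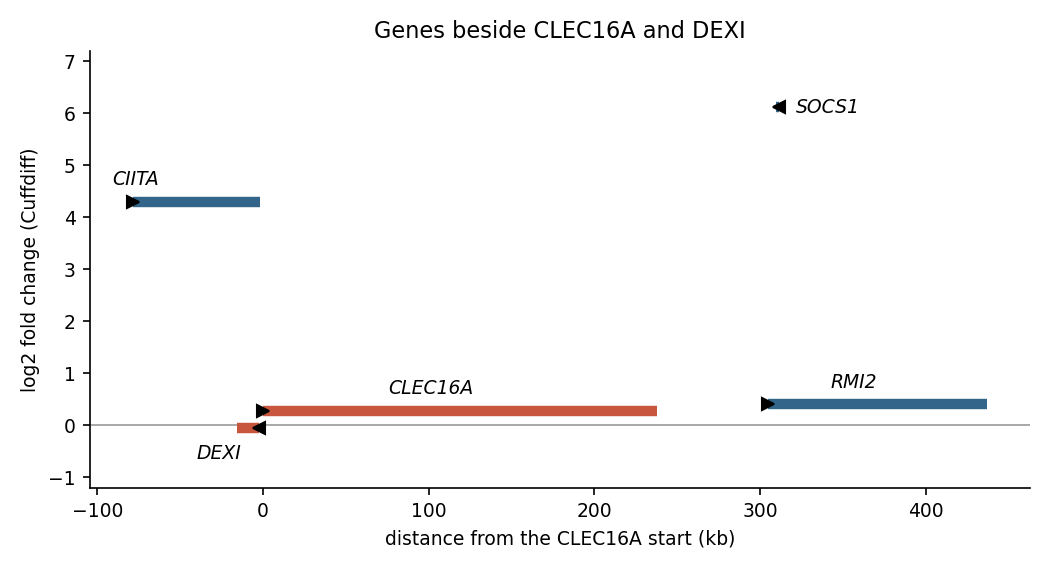
Horizontal bars show the extent of genes by distance from the CLEC16A start in kb, at the height of their Cuffdiff log2 fold change (authors' deposited gene table, no error available), and arrowheads mark start and direction of transcription. CLEC16A at 0.28 and DEXI at −0.05 (red), the latter drawn wholly within the extent of CIITA, lie lower than CIITA at 4.29 and SOCS1 at 6.12.

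PRKCQ, UBASH3A and PTPN22 act below antigen receptors in lymphocytes, and only PRKCQ was well measured in these cells. PRKCQ, protein kinase C theta, lies at chromosome 10, 6427143 to 6580301, minus strand. Worked-out means were 760 normalised counts in control and 874 in cytokine libraries, from the authors' deposited count table. On the log2 scale the change was 0.20 ± 0.07 (SE, 95% interval 0.07 to 0.33, DESeq adjusted p = 0.00629), or 1.15-fold, in the authors' deposited table. FPKM went from 5.07 to 6.09 (log2 0.27, Cuffdiff q = 0.000232) in the authors' deposited gene table. PRKCQ-201, with 706 codons, was at 3.10 and 3.24 FPKM, and ENST00000610727 at 1.12 and 1.67 FPKM, neither called in the authors' deposited isoform table. PRKCQ-AS1, a noncoding RNA that starts beside it on the opposite strand, had a log2 fold change of 0.16 ± 0.11 (SE), not called by DESeq in the authors' deposited table.

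Of 7 other protein kinase C loci with an adjusted p, 2 rose, 3 fell and 2 were not called by the authors' deposited count table. Over all tested loci 37.7% were called, and 76.1% of those with at least 500 counts. The median log2 fold change of these 7 loci was −0.04. PRKCZ, an atypical isoform, rose by 0.20 ± 0.07 (SE) on the log2 scale, the same rounded value as PRKCQ, in the authors' deposited table. The locus of PRKCH, which holds FLJ22447 and RP11-47I22.4 as well, fell by 0.58 ± 0.04 (SE) in log2 units in the authors' deposited count table, and its FPKM gave log2 −0.26. PRKCI had the highest mean of the family, 2287 counts, and fell by 0.16 ± 0.04 (SE) in log2 units in the authors' deposited table. Its FPKM gave log2 −0.15 without a call (Cuffdiff q = 0.296). In lymphocytes PRKCQ signals to NF-κB through a complex that holds BCL10 and MALT1. CARD10, a scaffold of such complexes outside lymphocytes, had the highest mean of the list, 2373 counts, in the authors' deposited table. BCL10 rose by 0.60 ± 0.09 (SE) and MALT1 fell by 0.36 ± 0.06 (SE) in log2 units in the authors' deposited table. In all, 1 of the 6 genes of the complex rose, 2 fell and 3 were not called in the authors' deposited table, where 37.7% of all tested loci were called.

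UBASH3A, a T cell protein that dampens receptor signals, lies at chromosome 21, 42403447 to 42447684, plus strand. Its mean was 5.06 normalised counts, with a log2 fold change of 0.29 ± 0.81 (SE, 95% interval −1.31 to 1.88, DESeq adjusted p = 0.855) in the authors' deposited table. Its levels were 0.0357 and 0.0501 FPKM, and Cuffdiff did not test it in the authors' deposited table. Changes within this interval were not detectable at this depth. UBASH3B, its widely expressed relative, had a mean of 52.5 counts and a log2 fold change of −0.02 ± 0.26 (SE), not called in the authors' deposited table.

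PTPN22, the lymphocyte phosphatase with a well known coding risk variant, lies at chromosome 1, 113813811 to 113871753, minus strand. Its mean was 1.17 normalised counts and its log2 fold change 0.56 ± 1.71 (SE), with no adjusted p, in the authors' deposited count table. It was at 0.0038 FPKM in control and 0.0101 FPKM in cytokine cells in the authors' deposited gene table. Only 2 of its 11 named transcripts were listed above 0 in the authors' deposited isoform table. PTPN22 overlaps noncoding RNAs on the opposite strand, over 97.2% of its length for an unnamed one and over 26.1% for AP4B1-AS1, so these few counts cannot be assigned to it with certainty. AP4B1-AS1 had a mean of 5.99 counts in the authors' deposited table.

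DLK1 lies at chromosome 14, 100725705 to 100738224, plus strand, in an imprinted region where it is made from the paternal copy and the noncoding RNA MEG3 from the maternal copy. It was the most abundant of the 10 genes, above 95.1% of the genes Cuffdiff tested in control cells, and the risk gene that was called lower. Worked-out means were 6069 normalised counts in control and 4615 in cytokine libraries, from the authors' deposited count table. The log2 fold change was −0.40 ± 0.03 (SE, 95% interval −0.46 to −0.33, DESeq adjusted p = 1.12e-31), or 0.760 of the control level, in the authors' deposited table. FPKM went from 80.7 to 64.7 (log2 −0.32, Cuffdiff q = 0.000232) in the authors' deposited gene table.

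DLK1 transcripts are known to differ by a stretch that encodes the part of the protein next to the membrane, where the extracellular part can be cut off and released. DLK1-202 holds it and encodes 383 codons, and DLK1-201 lacks it and encodes 310 codons. The 219 bases absent from DLK1-201 are shown in capitals, from the DLK1-202 transcript sequence of GENCODE 44, with 20 shared bases on each side in lower case.
DLK1-202: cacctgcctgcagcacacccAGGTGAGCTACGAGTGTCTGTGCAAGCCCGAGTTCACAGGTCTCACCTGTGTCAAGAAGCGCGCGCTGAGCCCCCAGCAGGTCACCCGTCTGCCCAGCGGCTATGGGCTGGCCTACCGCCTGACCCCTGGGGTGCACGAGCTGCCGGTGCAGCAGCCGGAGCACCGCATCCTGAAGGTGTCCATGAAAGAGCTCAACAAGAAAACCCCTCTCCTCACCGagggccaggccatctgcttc
DLK1-201 made up 84.1% of the gene's FPKM in control and 86.0% in cytokine cells, and fell from 67.8 to 55.7 FPKM (log2 −0.29, Cuffdiff q = 0.00302) in the authors' deposited isoform table. DLK1-202 fell from 11.7 to 8.50 FPKM (log2 −0.46, Cuffdiff q = 0.000833) in the authors' deposited isoform table. The ratio of DLK1-201 to DLK1-202 was 5.81 in control and 6.55 in cytokine cells, from the authors' deposited FPKM, and the difference of these ratios was not tested. The models also differ in length, 1324 bases against 4657, so their estimates rest on the 3′ end as well as on the shown stretch. DLK1-205 was at 0.766 and 0.450 FPKM and was not called in the authors' deposited table.

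Noncoding neighbours of DLK1 moved the other way. The MEG3 locus, with a mean of 33260 counts, had a log2 fold change of 0.56 ± 0.02 (SE) in the authors' deposited count table and went from 154 to 236 FPKM. The MEG8 locus, which also holds small nucleolar RNAs, had a log2 fold change of 0.61 ± 0.04 (SE) in the authors' deposited count table, and its FPKM change of log2 0.59 did not pass the test (q = 0.0916). The MEG9 locus had a log2 fold change of 0.47 ± 0.06 (SE) in the authors' deposited count table. RTL1, the other paternally expressed coding gene tested, was at 22.0 counts with a log2 fold change of 0.56 ± 0.39 (SE), not called by DESeq (adjusted p = 0.302) in the authors' deposited table.

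DLK1 is related to Notch ligands and can act on Notch signalling. Of 10 other genes of the imprinted region and the Notch group with an adjusted p, 4 rose, 3 fell and 3 were not called in the authors' deposited table. The share called was 37.7% over all tested loci and 76.1% over those with at least 500 counts. The 3 of the list that fell were the receptors NOTCH1, NOTCH2 and NOTCH3. NOTCH3 fell by 1.93 ± 0.17 (SE) in log2 terms, the largest fall of the list, at a mean of 153 counts in the authors' deposited table. HES1, a Notch target, rose by 1.5 ± 0.33 (SE) on the log2 scale at a mean of 34.7 counts in the authors' deposited table.

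RNLS, renalase, lies at chromosome 10, 88273864 to 88584530, minus strand. It encodes a flavin enzyme that oxidises altered forms of NADH. Worked-out means were 91.2 normalised counts in control and 74.3 in cytokine libraries, from the authors' deposited count table. These means follow from a deposited log2 fold change of −0.29 ± 0.21 (SE, 95% interval −0.70 to 0.11, DESeq adjusted p = 0.310), not past the threshold, in the authors' deposited table. FPKM was 2.57 in control and 2.00 in cytokine cells (log2 −0.36, Cuffdiff q = 0.0865) in the authors' deposited gene table. Unnamed assembled transcripts held 57.7% of its FPKM in control and 70.3% in cytokine cells, and no named transcript was called in the authors' deposited table. RNLS-201, with 342 codons, was at 0.30 and 0.231 FPKM, and RNLS-202, with 315 codons, at 0.189 and 0.247 FPKM in the authors' deposited table. A fall as large as that of DLK1 lies within the interval for RNLS. The amine oxidases MAOA and MAOB, other flavin enzymes, went in opposite directions. MAOA fell by 0.64 ± 0.05 (SE) on the log2 scale, and MAOB rose by 1.18 ± 0.18 (SE), in the authors' deposited table.

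A wider list of 47 genes often named at risk loci outside HLA gave the setting for the 10 genes. Of its 35 loci with an adjusted p, 14 rose, 8 fell and 13 were not called by the authors' deposited count table. Their median log2 fold change was 0.49 in the authors' deposited table. For comparison, 37.7% of all tested loci were called there, and 76.1% of those with at least 500 counts. The list holds loci above and below 500 counts, and whether it was called more often than loci of like depth was not tested. CCR7, a lymphocyte chemokine receptor, had the largest rise at a log2 fold change of 6.32 ± 1.34 (SE), but at a mean of only 7.04 counts and with a control level listed at 0 FPKM in the authors' deposited tables. Among abundant loci, the RNA sensor IFIH1 rose by 3.17 ± 0.04 (SE) and the NF-κB inhibitor TNFAIP3 by 2.66 ± 0.06 (SE) in log2 units in the authors' deposited table. CTSH, a lysosomal protease, fell by 1.17 ± 0.12 (SE) in log2 terms, the largest fall of the list, in the authors' deposited table. The lymphocyte genes CTLA4, SIRPG, CD69 and IL21 had no count in the authors' deposited table, and IL2RA had a mean of 0.157 counts.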

How the data were processed

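Poly(A) RNA of 6 EndoC-βH1 libraries was sequenced from directional libraries, per the labels' protocols. The tools named are STAR 2.5.2b, StringTie, DESeq, Cuffdiff 2.2.1, bcl2fastq and FastQC 0.10.1, with build hg38, per the submitters' processing notes. How reads were counted, with which strand setting and gene models, was not given in the sources used here.

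Per the file headers, the authors' deposited count table gives as signal a mean over the libraries of counts scaled by size factors. Its log2 values are the cytokine to control fold change and the SE, and the score is the test statistic, as deposited. The p-values, adjusted p-values and q-values are the authors' DESeq and Cuffdiff values as deposited. FPKM values are the authors' Cuffdiff group values, per the file headers.

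No count per library was at hand, so no test was run here and the deposited values at 0.05 were used. The deposited mean and log2 fold change gave the group means, with groups taken as equal in size, and 95% intervals from the SE. The Benjamini-Hochberg adjustment and the re-centring named below were tested on simulated data. The worked-out means and intervals were not. The adjustment repeated over all 30206 loci differed from the deposited one by at most 1.53e-15. A locus is a bundle of assembled transcripts, and its value belongs to all its symbols. The members and lists were chosen with earlier results of these data known. Named were all 10 genes, their transcripts of at least 0.5 FPKM or past the threshold, and in each list the gene of highest mean, largest rise and largest fall, some of which are not reported here. SOCS1, RMI2, MEG8, MEG9, RTL1, NOTCH1, NOTCH2, IFIH1, TNFAIP3, HMOX1, JAK2 and further list genes named beside them were added after their values were seen. Alternatives were re-centring, low-count filters, stricter thresholds, pseudocounts of 0.1 and 1 and the other table. Coordinates and transcript sequences came from GENCODE 44 and upstream windows from RefSeq. Software was matplotlib 3.10.9, scipy 1.17.1, numpy 2.4.6 and pandas 2.3.3 under Python 3.11.15.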

Additional observations from a re-analysis of the deposited data

How the results depend on the processing

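The deposited tables hold 1 fit of 3 against 3 libraries, so no library could be left out. No paired analysis was possible because the tables carry no values per library. Of 7 called loci, the DEXI locus reversed with the other tool, from a log2 fold change of 3.94 in the authors' deposited count table to −0.050 in the FPKM table. The other 6 kept direction and call with the FPKM table, after re-centring by the median of −0.06 over loci of at least 1000 counts, without a low-count filter and with a minimum of 10 counts. The count of called loci was 7 after re-centring and without a filter, and 6 with the minimum of 10, at an adjusted p of 0.01, for loci of 1 symbol and in the FPKM table. At a q of 0.01, chosen after seeing the data, the FPKM table called 5 genes, losing CLEC16A, and 7 transcripts. Pseudocounts moved the log2 FPKM change of BACH2 from 1.98 to 1.90 (0.1 added) and 1.39 (1 added), and that of SH2B3 from 0.95 to 0.83 (1 added). Depth limits PTPN22 and UBASH3A, whose means were 1.17 and 5.06 counts.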
